A study of Mus musculus with 4 samples.

Results

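The 39 genes described here encode the basement membrane, the dystroglycan complex that ties it to the cytoskeleton, and the integrins with their adaptors. They were taken by name from a fixed list, each matched exactly 1 of the 27998 genes in the count tables, and all 39 passed the filter on low counts when lineages were compared. By role they were 6 laminin chains, 6 collagen IV chains, 5 other basement membrane genes, 6 genes of the dystroglycan complex, 11 integrin subunits and 5 adaptors. Their gene bodies spanned from 4.50 kb (Itgb1bp2) to 2257.3 kb (Dmd) on the GRCm38 genome, and 4 of them (Dmd, Col4a5, Col4a6 and Itgb1bp2) lie on the X chromosome.

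The data were single-nucleus RNA-seq counts from the right ventricle (RV) of wild-type C57/BL6J mice at postnatal day 21 (P21). The 2 groups had either a sham operation or an ACF, an opening made between the abdominal aorta and the vein beside it, at P7. ACF loads the RV with extra volume (right ventricular volume overload, RVVO), and each group had 2 libraries. Whether a library held 1 mouse or several is not stated, and for the cyclosporin A or saline injections of the study the arm of these libraries is not stated either. In the order sham 1, sham 2, RVVO 1 and RVVO 2, which is kept throughout, 11352, 12793, 7660 and 11243 nuclei were kept, with median depths of 2150, 2015, 4560 and 3205 unique molecular identifiers (UMIs, counted RNA molecules). Xist, the transcript of the inactive X chromosome, stood at 1417 and 1476 CPM (a gene's UMIs scaled to a library total of 1000000) in the sham and 0.761 and 0.653 CPM in the RVVO libraries. The Y-linked Uty stood at 0.119 and 0.0276 CPM in the sham and 321 and 317 CPM in the RVVO libraries. The sham and RVVO groups thus differed in sex as well as in surgery, and the effects of both cannot be told apart. Between 23 and 48 barcodes were shared by any 2 libraries.

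A basement membrane is a thin sheet of matrix on which endothelium and epithelium rest and which wraps each muscle cell. Laminin trimers and a collagen IV network form its layers, nidogens and perlecan (Hspg2) link them, and cells hold the sheet through dystroglycan and through integrins, which are pairs of an alpha and a beta subunit. In heart muscle, dystroglycan is bound inside the cell to dystrophin (Dmd), and loss of Dmd or of the laminin chain Lama2 causes muscular dystrophy.

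Nuclei were sorted into 10 lineages with at least 20 nuclei in every library: cardiomyocytes (CMs), endothelial, endocardial, lymphatic endothelial, pericyte, smooth muscle, fibroblast, epicardial, macrophage and glial nuclei, 40838 of 43048 in all (B cell, T or NK cell and adipocyte nuclei were too few). The smallest lineages were glia (91, 129, 46 and 65 nuclei), lymphatic endothelium (100, 99, 102 and 63) and smooth muscle (176, 190, 66 and 109). CMs had 3655, 3818, 2816 and 4662 nuclei. Each name means that the nuclei were like that cell type in a list of markers. For 7 of the 10 lineages every listed marker was highest in the named nuclei, and the exceptions were endothelial (5 of 8), fibroblast (5 of 7) and pericyte (5 of 6) nuclei. The 1951 nuclei left unnamed carried 6.45%, 0.747%, 26.7% and 9.11% of each library's UMIs. Cardiomyocyte RNA was present in every lineage: relative to CMs of the same library, macrophages held 32.6%, 23.4%, 27% and 19.8% of the level of Ttn, the giant sarcomere protein, and 7.24%, 6.67%, 10.7% and 8.34% of that of Ryr2, the calcium release channel. Endothelial nuclei held 79.4% of the CM level of the myosin gene Myh6, so a low level of a CM gene in another lineage was not read as expression there.

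Transcripts of these genes were divided among the lineages. For 20 of the 39 genes (51.3%), 1 lineage was higher than each of the other 9 at an adjusted p under 0.05 (edgeR on the summed counts of each lineage in each library, with library as a block), against 40.4% of the 12678 genes tested. CMs led 5 of the 39 (12.8% of the members, 15.5% of all genes), and fibroblasts, lymphatic endothelial and smooth muscle nuclei led 3 each (2.41%, 1.95% and 1.5% of all genes). Endocardial, endothelial and epicardial nuclei led 2 each (1.7%, 3.5% and 3.83% of all genes). No member was led by macrophages, pericytes or glia (6.89%, 1.62% and 1.5% of all genes). By role, 5 of 6 laminin chains, 3 of 6 collagen IV chains, 2 of 5 other basement membrane genes, 5 of 6 dystroglycan genes, 4 of 11 integrins and 1 of 5 adaptors had such a lineage, and differences between roles were not tested. The scaling factors of the test (TMM) set CMs 0.48 to 0.63 higher on the log2 scale against each other lineage than plain CPM does, so fold changes against CMs are given with that shift. Scaled by library totals, 33.5% of all genes and 22 of the members had such a lineage; Sgcb was lost, Lama2, Col4a5 and Itgb3 were gained, and the other 19 kept theirs. Without sham 2 the same exchange was seen and Tln1 was gained too.

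**Figure D1:**
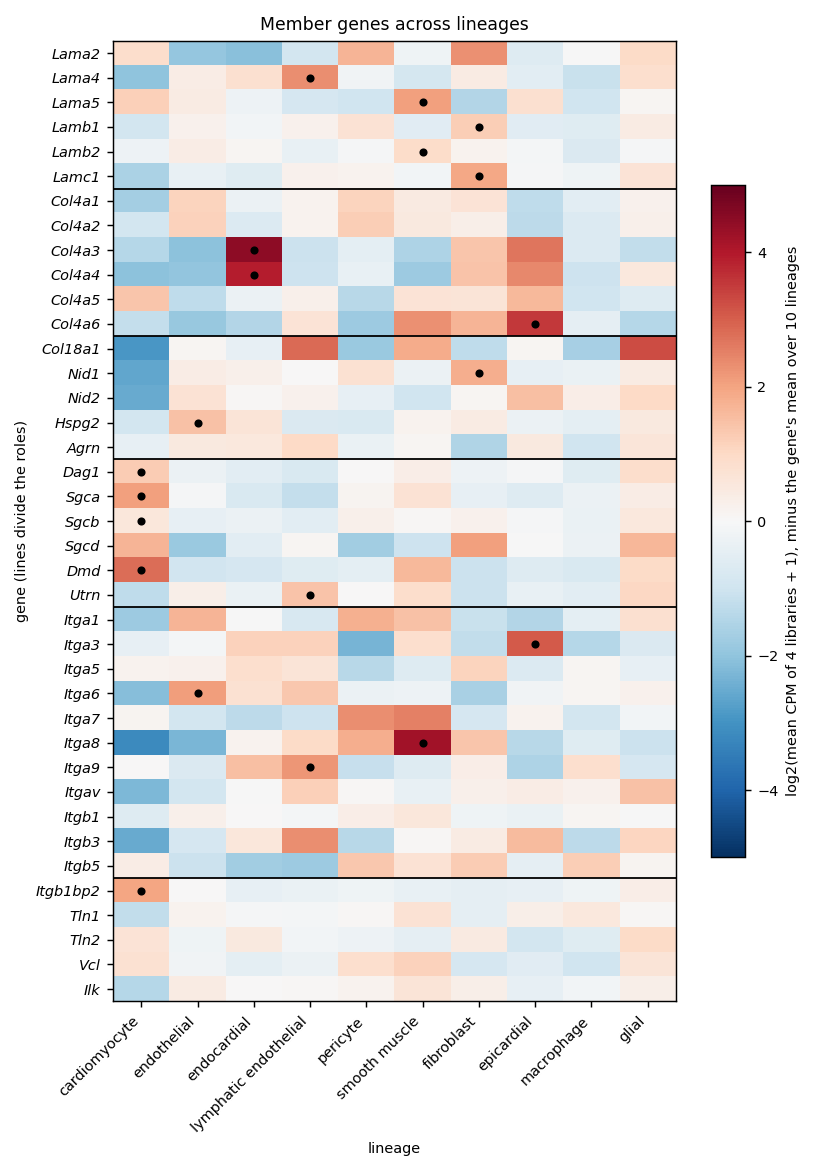
Level of each of the 39 genes (rows, divided by role) in 10 lineages (columns), as log2 of the mean CPM of 4 libraries plus 1, minus the gene's mean over lineages; a dot marks a lineage above each of the other 9 in the edgeR test. The 20 dots are spread over 7 lineages, with 5 in the cardiomyocyte column.

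Fibroblasts had the highest levels of the chains Lamc1, Lamb1 and Lama2. Lamc1 (chr1:153218922-153332786), the gamma chain shared by most laminins, measured 1086, 1024, 1259 and 1062 CPM in fibroblasts and 542, 506, 441 and 376 CPM in glia, the next lineage. Every fibroblast value lay above every glial value, and the difference was 1.26 (SE 0.14, adjusted p = 2.04e-09) on the log2 scale. CMs had 96.1 ± 14 CPM of Lamc1 (mean ± SD, n = 4 libraries), lower than each other lineage in the test. The beta chain Lamb1 followed, with 208, 232, 287 and 286 CPM in fibroblasts and 197, 159, 183 and 179 CPM in pericytes, a log2 difference of 0.41 (SE 0.16, adjusted p = 0.0386). That call was lost without RVVO 1, without RVVO 2, with DESeq2 and with the 39 genes used in clustering. Lama2, the alpha chain of the muscle basement membrane, measured 2944, 2589, 3267 and 2814 CPM in fibroblasts and 1808, 1659, 2462 and 1892 CPM in pericytes. These did not overlap, but the log2 difference of 0.51 (SE 0.21, adjusted p = 0.0551) missed the threshold. CMs themselves held 1094 ± 149 CPM of Lama2, below fibroblasts by 0.84 (SE 0.21, adjusted p = 0.000475).

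The other alpha chains had other sources. Lama4, the alpha chain of vessel walls, measured 1225, 1447, 1367 and 1343 CPM in lymphatic endothelial nuclei and 459, 537, 391 and 526 CPM in glia, a log2 difference of 1.47 (SE 0.21, adjusted p = 6.63e-07). Blood endothelium held 345 ± 26.9 CPM and CMs 65.9 ± 7.10 CPM. Lama5 measured 89.9, 122, 103 and 151 CPM in smooth muscle against 58.4, 78.5, 61.9 and 56 CPM in CMs, 0.38 (SE 0.16, adjusted p = 0.0425). The groups did not overlap, but this call was the least stable of the laminins: it was lost without RVVO 2, with nuclei thinned to 1 depth and under 3 other settings. Fibroblasts held only 9.34 ± 1.83 CPM of Lama5. Lamb2 was highest in smooth muscle too, at 174, 122, 147 and 147 CPM against 108, 102, 96.6 and 93 CPM in endothelial nuclei, 0.54 (SE 0.11, adjusted p = 0.000141), a call lost with doublets kept.

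The 6 collagen IV genes lie in 3 pairs in the genome, each read in opposite directions from neighbouring starts, and are given by pair, a grouping chosen after their values were seen. Col4a1 (chr8:11198423-11312826) and Col4a2 (chr8:11312805-11449287), the common chains, were highest in pericytes and endothelium. Col4a1 measured 1037, 659, 873 and 754 CPM in pericytes and 969.9, 736, 829.5 and 741 CPM in endothelial nuclei, and these overlapped, with a log2 difference of -0.00 (SE 0.13, adjusted p = 0.992). Col4a2 measured 794, 590, 766 and 570.2 and 696, 567, 677 and 583 CPM in the same lineages. Over the 10 lineages, Pearson's r of log2(CPM + 1) between this pair was 0.94, and among 15265 genes with at least 100 UMIs Col4a1 stood at place 2 of those most like Col4a2 and Col4a2 at place 7 for Col4a1. The 10 points share libraries, and the value is a description.

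Col4a3 (chr1:82586921-82722059) and Col4a4 (chr1:82448423-82586849), known for the filter of the kidney, were endocardial here. Col4a3 measured 732, 738, 804 and 332 CPM in endocardial nuclei and 203, 137, 227 and 174 CPM in epicardial nuclei, 1.81 (SE 0.19, adjusted p = 1.61e-10). In the other blood endothelium it measured 4.45, 5.29, 8 and 6.58 CPM, so neighbouring endothelial lineages sat at the top and at the bottom of the order. Col4a4 measured 895, 811, 1039 and 434 CPM in endocardial and 245, 237, 403 and 222 CPM in epicardial nuclei, 1.52 (SE 0.21, adjusted p = 1.42e-07). RVVO 2 had the lowest endocardial value of both genes. The r of this pair was 0.94, and Col4a3 stood at place 2 for Col4a4 and Col4a4 at place 3 for Col4a3. Col4a5 and Col4a6, both X-linked, were less alike (r = 0.74). Col4a6 measured 64.4, 161, 91.9 and 224 CPM in epicardial nuclei and 41.1, 108, 39.7 and 36.6 CPM in smooth muscle, which overlapped, with 1.33 (SE 0.33, adjusted p = 0.00146). That call was lost without RVVO 2 and with doublets kept. Col4a5 was shared by epicardial nuclei (166, 262, 227 and 265 CPM) and CMs (197, 186, 214 and 177 CPM), which overlapped, with -0.22 (SE 0.12, adjusted p = 0.11) on the log2 scale.

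The start regions are shown so that the close pair Col4a1 and Col4a2 can be set beside the wider pair Col4a5 and Col4a6. Each window runs from 250 bases before to 50 bases after a start site in RefSeq (GRCm38.p6), 5′ to 3′ on the gene's strand, and capitals mark a CCAAT box (CCAAT or its complement ATTGG) or a GC box (GGGCGG or CCGCCC). RefSeq windows were found for 30 of the 39 genes.
Col4a1 (chr8:11312777-11313076, minus strand): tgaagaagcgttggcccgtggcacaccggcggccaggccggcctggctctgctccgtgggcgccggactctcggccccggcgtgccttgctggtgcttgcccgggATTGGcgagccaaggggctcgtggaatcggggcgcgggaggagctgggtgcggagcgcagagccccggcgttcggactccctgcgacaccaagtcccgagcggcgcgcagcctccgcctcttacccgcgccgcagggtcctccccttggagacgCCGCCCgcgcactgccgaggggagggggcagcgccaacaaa
Col4a2 (chr8:11312555-11312854, plus strand): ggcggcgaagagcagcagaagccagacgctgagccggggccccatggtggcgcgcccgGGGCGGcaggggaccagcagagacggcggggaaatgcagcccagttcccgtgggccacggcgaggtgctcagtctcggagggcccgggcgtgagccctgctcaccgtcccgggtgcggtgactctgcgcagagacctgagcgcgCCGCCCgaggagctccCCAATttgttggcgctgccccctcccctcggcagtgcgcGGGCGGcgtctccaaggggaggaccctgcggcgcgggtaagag
Col4a4 (chr1:82586800-82587099, minus strand): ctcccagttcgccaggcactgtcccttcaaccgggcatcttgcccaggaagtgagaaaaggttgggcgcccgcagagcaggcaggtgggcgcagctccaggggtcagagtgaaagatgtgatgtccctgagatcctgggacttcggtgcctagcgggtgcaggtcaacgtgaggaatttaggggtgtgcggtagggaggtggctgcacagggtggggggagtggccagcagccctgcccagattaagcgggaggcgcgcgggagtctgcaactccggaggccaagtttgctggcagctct
Col4a5 (chrX:141475169-141475468, plus strand): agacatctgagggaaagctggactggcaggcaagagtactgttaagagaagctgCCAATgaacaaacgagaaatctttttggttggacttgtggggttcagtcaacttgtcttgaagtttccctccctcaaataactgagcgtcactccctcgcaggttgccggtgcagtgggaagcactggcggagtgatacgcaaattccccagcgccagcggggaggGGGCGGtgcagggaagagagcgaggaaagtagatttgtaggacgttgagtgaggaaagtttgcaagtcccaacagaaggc
Col4a6 (chrX:141474027-141474326, minus strand): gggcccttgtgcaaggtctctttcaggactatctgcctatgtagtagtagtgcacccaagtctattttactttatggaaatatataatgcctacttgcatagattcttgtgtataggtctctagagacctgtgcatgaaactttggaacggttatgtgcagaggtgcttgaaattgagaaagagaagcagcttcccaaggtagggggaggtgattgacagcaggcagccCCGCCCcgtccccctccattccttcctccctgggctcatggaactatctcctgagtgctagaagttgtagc
The Col4a1 and Col4a2 windows overlap by 78 bases, with start sites 21 bases apart, whereas those of Col4a5 and Col4a6 are 1343 bases apart and share none. A CCAAT box stood in 37.4% and a GC box in 35.7% of all 32851 windows. The Col4a1, Col4a2 and Col4a5 windows held both, Col4a6 a GC box alone, and Col4a4 neither. These matches are letters in a window and not tested sites.

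Of the linkers, Nid1 and Hspg2 had different leading lineages. Nid1, which bridges laminin and collagen IV, measured 504, 456, 599 and 531 CPM in fibroblasts and 219, 233, 289 and 268 CPM in pericytes, 0.97 (SE 0.16, adjusted p = 2.56e-06). Hspg2, the proteoglycan perlecan, measured 573, 558, 623 and 616 CPM in endothelial and 313, 373, 297 and 370.4 CPM in endocardial nuclei, 0.82 (SE 0.14, adjusted p = 9.36e-06). Nid2 was most variable in its top lineage: epicardial nuclei had 37.2, 147, 40.5 and 164 CPM, glia 62.5, 95.1, 46.8 and 71.6 CPM, and the log2 difference was 0.70 (SE 0.34, adjusted p = 0.139). Col18a1, the source of endostatin, was highest in glia (317, 358, 197 and 189.8 CPM) and lymphatic endothelium (214, 142, 206 and 224 CPM), with 0.44 (SE 0.20, adjusted p = 0.126) between them and 2.73 ± 0.719 CPM in CMs. Agrn, a proteoglycan that binds dystroglycan, was highest on average in lymphatic endothelial nuclei. In the test they stood above 5 other lineages but not above every one, and in RVVO 2 epicardial nuclei were highest.

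By CPM, CMs were the lowest lineage for 9 of the 17 matrix genes (Lama4, Lamb1, Lamc1, Col4a1, Col4a4, Col18a1, Nid1, Nid2 and Hspg2) and for 9 of the 22 receptor and adaptor genes, and the highest for 4 of the 6 genes of the dystroglycan complex. In the test, where CMs are scaled up, the matrix genes Lamc1, Nid1 and Col18a1 and the receptor and adaptor genes Itga8, Itgav, Itgb3 and Ilk were lower in CMs than in each other lineage, while Hspg2 was higher in CMs than in 2 of the 9. How many of all genes were lowest in CMs was not counted, so these counts are not read as a trait of the members. Dag1, which encodes both dystroglycan subunits, measured 553, 514, 546 and 453 CPM in CMs and 484, 327, 441 and 315 CPM in glia. The CPM overlapped, and the test gave a log2 difference of 1.0 (SE 0.11, adjusted p = 1.28e-09). The call was kept with library totals. Dmd (chrX:82948870-85206141) measured 9997, 9795, 11711 and 11052 CPM in CMs and 4006, 5728, 4793 and 4621 CPM in smooth muscle, 1.64 (SE 0.23, adjusted p = 1.25e-07). In macrophages Dmd stood at 8.39% of its CM level and in fibroblasts at 7.01%, beside 8.23% and 6.28% for Ryr2, 25.7% and 25.2% for Ttn, and 57.5% and 59.6% for Myh6. In smooth muscle it stood at 45.3%, beside 11.2% for Ryr2, 25.8% for Ttn and 56.1% for Myh6.

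The sarcoglycans, membrane partners of dystrophin, did not share 1 source. Sgca measured 94.1, 101, 85.6 and 80.7 CPM in CMs and 43, 33.5, 35 and 32.1 CPM in smooth muscle, 1.83 (SE 0.19, adjusted p = 1.47e-10). Sgcb was nearly level between CMs (43.8, 44.3, 56.3 and 50.4 CPM) and glia (37.5, 34.2, 53.5 and 64.5 CPM), and its call for CMs (0.62, SE 0.20, adjusted p = 0.00802) was lost with library totals, without sham 2, without RVVO 1, with DESeq2 and with thinned nuclei. Sgcd measured 1757, 2072, 2218 and 1619 CPM in fibroblasts and 1514, 1533, 1534 and 1369 CPM in CMs. By CPM fibroblasts were higher, by the scaled test CMs were, and the difference, fibroblasts minus CMs, of -0.22 (SE 0.21, adjusted p = 0.365) did not pass. Utrn, the paralogue of dystrophin, was lowest by CPM where Dmd was highest. It measured 2213, 2135, 2085 and 2052 CPM in lymphatic endothelial nuclei and 1718, 1906, 1348 and 1447 CPM in glia, 0.37 (SE 0.10, adjusted p = 0.00378), and 308, 343, 338 and 314 CPM in CMs. After scaling, 7 of the 9 other lineages were above CMs and 1 below. Its call was lost without RVVO 1, at Leiden resolution 0.5 (coarser clusters) and with thinned nuclei. The r between Dmd and Utrn was -0.05, against 0.88 between Dmd and Dag1.

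**Figure D2:**
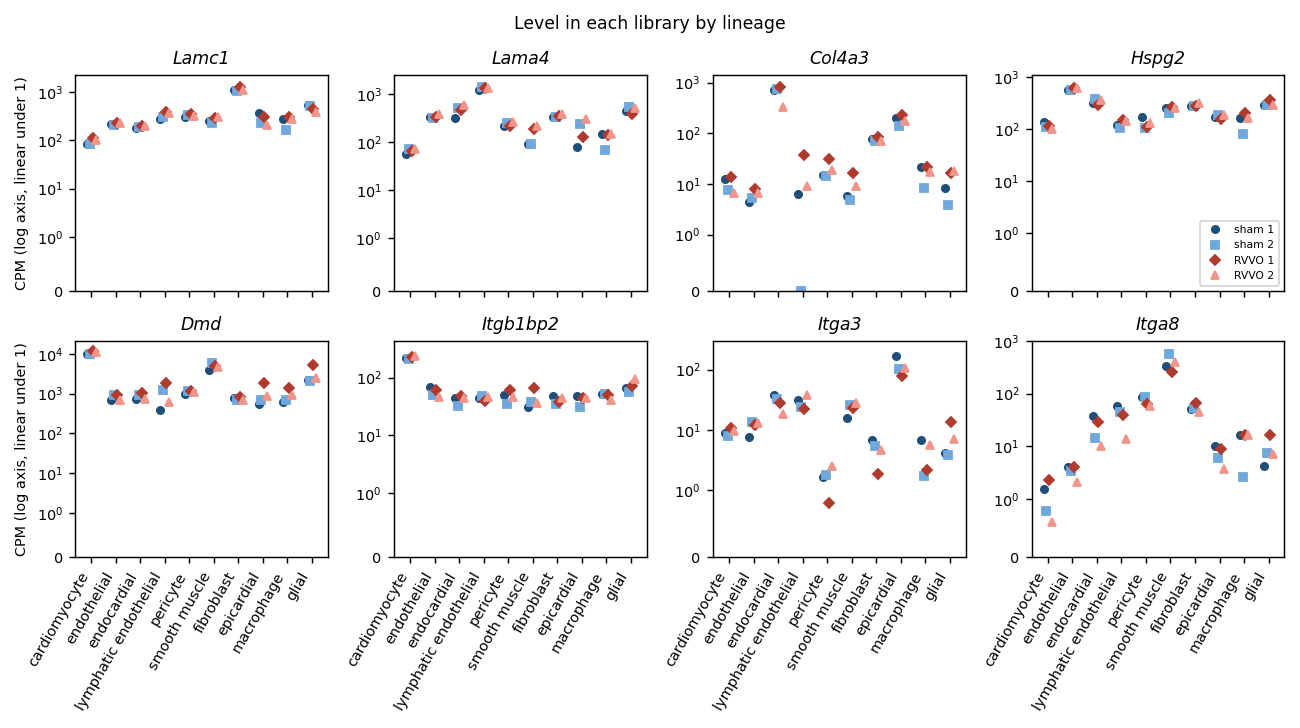
CPM (log axis, linear under 1) of 8 genes in 10 lineages, with 1 point per library (circles and squares sham, diamonds and triangles RVVO). Lamc1 is highest in fibroblasts and Dmd in cardiomyocytes in all 4 libraries, and Col4a3 is high in endocardial and low in endothelial nuclei.

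The laminin-binding integrin subunits Itga6, Itga3 and Itga7 were each highest in a different lineage. Itga6 measured 458, 469, 411 and 421 CPM in endothelial and 274, 289, 254 and 257 CPM in lymphatic endothelial nuclei, 0.86 (SE 0.16, adjusted p = 4.23e-05). Itga3 measured 166, 104, 77.6 and 104 CPM in epicardial and 38.2, 32.6, 27.5 and 18.6 CPM in endocardial nuclei, 1.92 (SE 0.23, adjusted p = 8.54e-09). Itga7, known as the laminin receptor of muscle, was highest in smooth muscle (176, 167, 93.4 and 147 CPM) and pericytes (114, 143, 131 and 121 CPM). These overlapped (0.18, SE 0.19, adjusted p = 0.595), and CMs held 27.5 ± 3.01 CPM.

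Among the subunits for other ligands, Itga8, which pairs with Itgb1 to bind nephronectin, had the widest gap of the integrins among the members. It measured 334, 562, 259 and 398 CPM in smooth muscle and 85.5, 87.6, 62.8 and 59.2 CPM in pericytes, 2.41 (SE 0.24, adjusted p = 2.09e-10). Itga9 measured 746, 687, 810.3 and 788 CPM in lymphatic endothelium, where it is known for valve formation, and 369, 609.9, 505 and 354 CPM in endocardial nuclei, 0.61 (SE 0.18, adjusted p = 0.0132). This call was lost without sham 1, without RVVO 2 and at Leiden resolution 0.5. The collagen-binding Itga1 overlapped between pericytes (776, 868, 709 and 764 CPM) and endothelial nuclei (897, 791, 595 and 629 CPM). The fibronectin-binding Itga5 led in fibroblasts (124, 126, 132 and 159 CPM) but overlapped with endocardial nuclei (137, 73, 96.8 and 141 CPM).

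None of the 3 beta subunits had 1 lineage above every other. Itgb1, the partner of most alpha subunits, ranged between lineages from 198 ± 15.6 CPM in CMs to 468 ± 33 CPM in smooth muscle. Smooth muscle lay above pericytes in every library, with 0.24 (SE 0.10, adjusted p = 0.0851). Itgb5 was nearly level between pericytes (176 ± 13.9 CPM), fibroblasts (165 ± 7.21 CPM) and macrophages (164 ± 12 CPM). Itgav, their common partner, was highest in glia (309, 297, 227 and 312 CPM). Itgb3 had the fewest UMIs of the 39 genes, 1496 in all against 1031712 for Dmd, and measured 37.3, 61, 107 and 74.6 CPM in lymphatic endothelium.

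Adaptors join integrins to actin. Itgb1bp2 (melusin), a muscle protein that binds Itgb1, measured 216, 209.9, 229 and 240 CPM in CMs and 66.7, 57.1, 70.2 and 93.1 CPM in glia, 2.23 (SE 0.17, adjusted p = 1.86e-14). As a share of its CM level, its mean in each other lineage lay between those of Ryr2 and Ttn, for example 21.8% in macrophages. The talins had opposite orders (r = -0.66). Tln1 was highest in smooth muscle (151, 155, 121 and 172 CPM) and lowest in CMs (41.4, 34.1, 35.3 and 39.9 CPM), while Tln2 measured 238, 190.3, 231 and 183 CPM in glia and 175, 192, 171 and 166 CPM in CMs, a scaled difference, glia minus CMs, of -0.35 (SE 0.16, adjusted p = 0.0634). Vcl and Ilk were highest in smooth muscle, at 477 ± 94.4 and 85.2 ± 5.94 CPM, and neither stood above every other lineage. The same lineage was highest in all 4 libraries for 24 of the 39 genes and in at least 3 libraries for 35.

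The level per UMI is not the amount that a lineage contributed, because CMs held 44.6%, 48.7%, 44.4% and 52% of all UMIs. Counted as shares of each gene's UMIs, CMs were the largest source of 22 of the 39 genes, endothelial nuclei of 9, fibroblasts of 5 and endocardial nuclei of 2. For the remaining gene, Itgb3, the unnamed nuclei held the most. The largest source was not counted over all genes, so the 22 of 39 is not read as a trait of the members. CMs gave 87.1% ± 6.96 (mean ± SD, n = 4) of the Dmd, 79.7% ± 5.85 of the Sgca and 70.8% ± 4.33 of the Dag1 UMIs. They also gave 70.2% ± 4.53 of Col4a5 and 46.2% ± 5.32 of Lama2, more than the 26.7% ± 7.56 from fibroblasts. Fibroblasts gave 39.6% ± 9.75 of Lamc1 and 36.9% ± 7.64 of Nid1. Endocardial nuclei, 2.45% of all UMIs, gave 38% ± 6.75 of Col4a3.

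**Figure D3:**
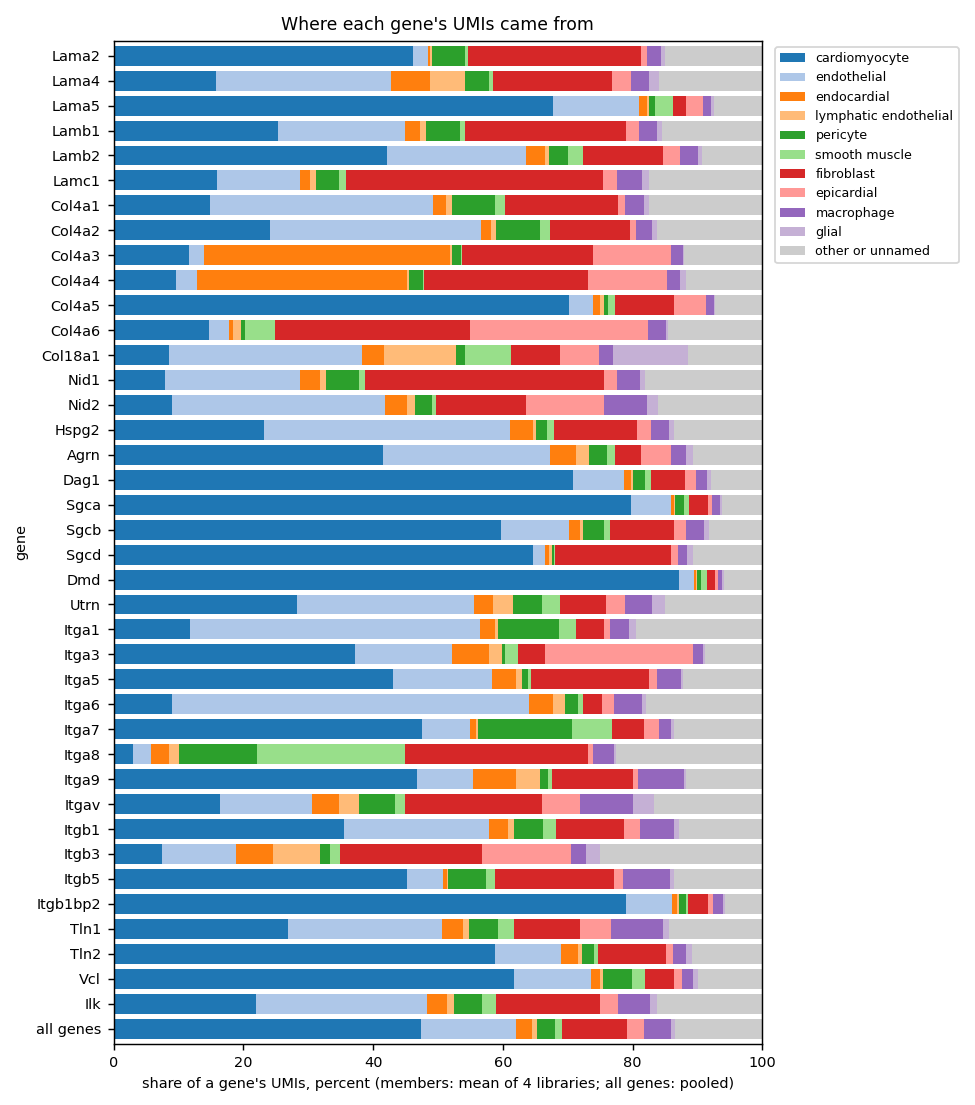
Share of each gene's UMIs (percent, mean of 4 libraries) by lineage, with all genes pooled in the bottom bar for comparison. Cardiomyocytes take the largest share of Dmd, Sgca and Itgb1bp2, endocardial nuclei that of Col4a3 and Col4a4, and endothelial nuclei that of Itga6.

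The endothelial share of several members was lower in the RVVO libraries, as was the share of endothelial nuclei. Of Col4a1 UMIs, endothelial nuclei gave 48.9% and 45.6% in the sham and 20.2% and 22.7% in the RVVO libraries. Of Hspg2 they gave 52.4% and 48.3% in the sham and 24.8% and 26.3% in the RVVO libraries, and of Itga6 69.2% and 74.3% in the sham and 36.5% and 40% in the RVVO libraries. In each case both sham values lay above both RVVO values. Endothelial nuclei were 36.9% and 33% of the kept nuclei in the sham and 20.9% and 14% in the RVVO libraries. Of the UMIs of all genes they held 26% and 20.4% in the sham and 8.61% and 8.97% in the RVVO libraries, so the lower share was not particular to these members. These shares are a description, with no test. The level of Col4a1 within endothelial nuclei overlapped between the groups, at 969.9, 736, 829.5 and 741 CPM. Those of Hspg2 (573, 558, 623 and 616 CPM) and Itga6 (458, 469, 411 and 421 CPM) did not overlap, Hspg2 being higher and Itga6 lower in the RVVO libraries.

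RVVO and sham libraries were then compared within 5 lineages, to ask whether the matrix or its receptors changed with volume overload. With the filter on low counts, no member passed an adjusted p of 0.05 in any of them, by edgeR or by DESeq2. Across all genes, 0.0475% were called in CMs, 0.17% in endothelial nuclei, 0.0612% in fibroblasts, 0.0604% in pericytes and 0.0626% in macrophages. At an unadjusted p under 0.05 there were 3 members of 39 in CMs, 3 of 39 in endothelial nuclei, 3 of 39 in fibroblasts, 3 of 35 in pericytes and 4 of 37 in macrophages. The shares of all genes under that p were 4.94%, 5.71%, 4.18%, 4.49% and 8.63%. The median log2 difference of the members was -0.08, -0.06, 0.07, 0.04 and 0.17 in the same order, against -0.00, -0.01, -0.00, 0.00 and 0.01 over all genes. A p that misses the threshold with 2 libraries a group does not show that a gene was unchanged.

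The RVVO values exceeded the sham values without overlap for 8 of 39 members in CMs, 10 of 39 in endothelial nuclei, 10 of 39 in fibroblasts, 9 of 35 in pericytes and 6 of 37 in macrophages. The shares of all genes were 22%, 22.2%, 17.7%, 15.9% and 23.5%. They fell short of them without overlap for 6, 8, 5, 5 and 4 members in the same order, against 12.3%, 11.1%, 12.4%, 15.8% and 18.5% of all genes. Within CMs, endothelial nuclei, fibroblasts and macrophages the libraries were not alike in makeup. A deep CM cluster held 5.77%, 10.7%, 73% and 10.3% of the CMs, a shallow one 39.8%, 32.4%, 5.82% and 12.9%, and a shallow endothelial cluster 27.2%, 29%, 13.1% and 3.30% of the endothelial nuclei. A shallow fibroblast cluster held 18%, 12.9%, 4.38% and 1.0% of the fibroblasts, and the main macrophage cluster 77.2%, 83.9%, 63.5% and 58.1% of the macrophages. The part of this in the values below was not tested.

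**Figure D4:**
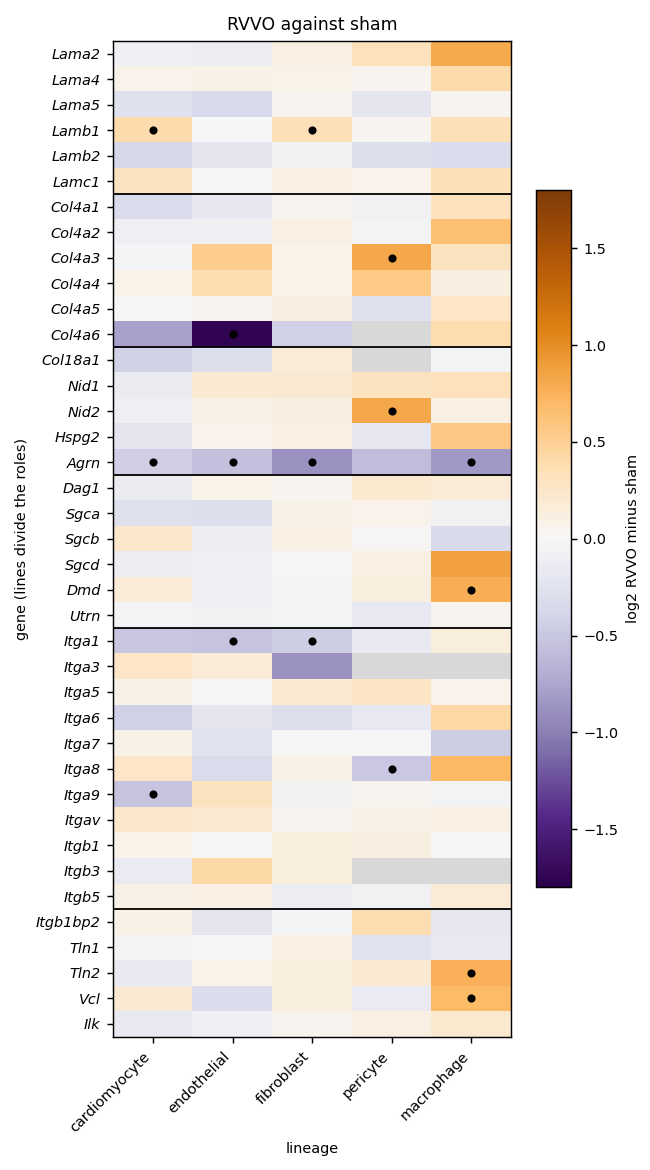
Log2 difference, RVVO minus sham, of each gene (rows, divided by role) in 5 lineages (columns); a dot marks an unadjusted p under 0.05 and grey a gene not tested. None passed the adjusted threshold, and Agrn is on the lower side in all 5 columns.

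Agrn, singled out after its values were seen, had the same direction in all 5 lineages and an unadjusted p under 0.05 in 4 of them. In endothelial nuclei it measured 87.5 and 79.5 CPM in the sham and 54.5 and 64.6 CPM in the RVVO libraries, a log2 difference of -0.56 (SE 0.14, adjusted p = 0.373). In fibroblasts it measured 25.3 and 19.6 CPM in the sham and 11.6 and 13 CPM in the RVVO libraries, with -0.88 (SE 0.24, adjusted p = 0.743). In CMs it measured 47.8 and 37.5 CPM in the sham and 30 and 34.7 CPM in the RVVO libraries, in pericytes 57 and 40.8 CPM in the sham and 32.6 and 31.5 CPM in the RVVO libraries, and in macrophages 37.1 and 26.4 CPM in the sham and 21.5 and 14.9 CPM in the RVVO libraries. In all 5 of these lineages the RVVO values were the lower ones without overlap, which held for 1 of 35 members and for 1.14% of the 9452 genes tested in all 5, and no member was higher in all 5 (0.656% of genes). Over all 10 lineages it held for Agrn in 9, smooth muscle being the exception. How many of all genes did so was not counted, so the 9 of 10 is not read as a trait of Agrn. The lineages come from the same 4 libraries and do not repeat the comparison. After thinning to 1000 UMIs a nucleus (1472, 2305, 61 and 0 shallower nuclei dropped), both RVVO values were again the lower ones in all 5 lineages, for example 84.8, 85.5, 52.1 and 66.6 CPM in endothelial nuclei. The share of all genes that did so after thinning was not counted either.

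**Figure D5:**
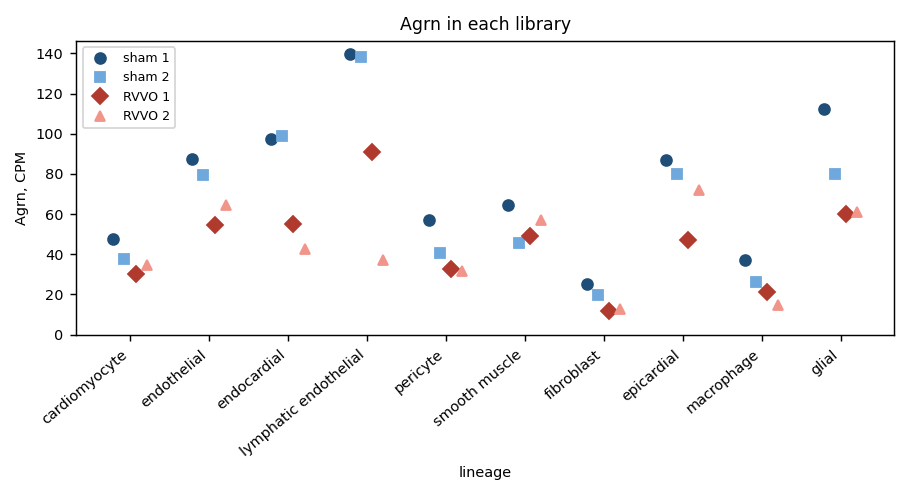
CPM of Agrn in 10 lineages, with 1 point per library (circles and squares sham, diamonds and triangles RVVO). In every lineage but smooth muscle both RVVO points lie under both sham points.

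The other members with an unadjusted p under 0.05 did not pass the adjusted threshold either. Itga1 measured 897 and 791 CPM in the sham and 595 and 629 CPM in the RVVO libraries for endothelial nuclei, with -0.53 (SE 0.15, adjusted p = 0.472), and 133 and 107 CPM in the sham and 96.7 and 81.4 CPM in the RVVO libraries for fibroblasts, with -0.46 (SE 0.18, adjusted p = 0.999). Lamb1 measured 208 and 232 CPM in the sham and 287 and 286 CPM in the RVVO libraries for fibroblasts, with 0.35 (SE 0.13, adjusted p = 0.999), and 48.8 and 45.7 CPM in the sham and 58.1 and 70.2 CPM in the RVVO libraries for CMs, with 0.40 (SE 0.15, adjusted p = 0.971). Itga9 was lower in RVVO in CMs, with 196 and 188 CPM in the sham and 122 and 153 CPM in the RVVO libraries and -0.53 (SE 0.15, adjusted p = 0.922).

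In pericytes, Nid2 measured 16.8 and 19.5 CPM in the sham and 32.6 and 31.5 CPM in the RVVO libraries, with 0.82 (SE 0.28, adjusted p = 0.932). Col4a3 in pericytes measured 15.1 and 14.2 CPM in the sham and 31 and 18.9 CPM in the RVVO libraries, with 0.83 (SE 0.35, adjusted p = 1). Itga8, higher in these cells, measured 85.5 and 87.6 CPM in the sham and 62.8 and 59.2 CPM in the RVVO libraries, with -0.50 (SE 0.18, adjusted p = 1). The X-linked Col4a6 in endothelial nuclei was low throughout, with 1.94 and 4.75 CPM in the sham and 0.631 and 1.41 CPM in the RVVO libraries. In macrophages, Dmd measured 626 and 705 CPM in the sham and 1385 and 913 CPM in the RVVO libraries, with 0.79 (SE 0.26, adjusted p = 0.564). As a share of its level in CMs of the same library this was 6.26%, 7.20%, 11.8% and 8.26%, and Ryr2, a CM gene outside the list, gave 7.24%, 6.67%, 10.7% and 8.34%. Ttn gave 32.6%, 23.4%, 27% and 19.8%, with overlap, and Myh6 gave 71.2%, 60.9%, 47.3% and 50.5%, lower in the RVVO libraries. Tln2 in macrophages measured 58.3 and 45.2 CPM in the sham and 105 and 74.3 CPM in the RVVO libraries, with 0.77 (SE 0.27, adjusted p = 0.571), and Vcl 87.1 and 76.7 CPM in the sham and 142 and 126 CPM in the RVVO libraries, with 0.70 (SE 0.20, adjusted p = 0.543). How much CM RNA contributed to these macrophage values was not tested.

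Whether the RVVO effect of a member differed between CMs, endothelial nuclei, fibroblasts and macrophages was tested as an interaction in 6 pairs of lineages. No member was called in any pair, against 0.04% of 14993 genes called in at least 1. At an unadjusted p under 0.05 there were 12 of 39 members for CMs against macrophages (11.7% of all genes), 9 for endothelial nuclei against macrophages (9.56%), 5 for fibroblasts against macrophages (11.1%), and 1 or 2 for each of the other pairs (4.52%, 5.05% and 3.21%). The count was 11 without the filter on low counts and 2 with DESeq2. It also moved when sham 1 was left out, which leaves 1 sham library, and not when any other library was. The share of all genes called under these settings was not counted, so these counts are not read as a trait of the members.

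A further 3 lists of the same pathways were counted, with 64 of their 65 genes found and 58 tested. Unlike the members, these genes were not kept out of the variable genes used for clustering. They could thus help to define the lineages, and their lineage calls and p-values are a description and not independent support. Of 17 tested basement membrane genes, 11 had 1 lineage above every other (40.4% of all genes did), among them Smoc1 in endocardial nuclei (log2 above the next lineage 4.66, SE 0.32, adjusted p = 4.79e-15), Fras1 in epicardial nuclei (4.52, SE 0.24, adjusted p = 6.96e-19) and Lamc3 in epicardial nuclei (3.96, SE 0.42, adjusted p = 3.57e-09). Of 16 genes around dystroglycan, 8 did, among them Sgcz in glia (4.37, SE 0.53, adjusted p = 2.23e-08) and Dtnb in epicardial nuclei (2.02, SE 0.16, adjusted p = 1.72e-13). Of 25 integrin and adhesion genes, 15 did, and 5 of these were led by macrophages (6.89% of all genes were). They include Fermt3 (4.32, SE 0.27, adjusted p = 1.39e-16), Itgb2 (3.69, SE 0.61, adjusted p = 4.09e-06) and Itgam (3.40, SE 0.85, adjusted p = 0.00169), the leukocyte adaptor and integrin subunits. None of these genes was called between RVVO and sham in any of the 5 lineages, and 1 to 4 had an unadjusted p under 0.05 in each.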

How the data were processed

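The authors deposited 10x Genomics 3′ matrices of raw UMI counts per gene and barcode. The processing notes name Cell Ranger 3.0.1, Seurat 3.0.2, STAR and GRCm38/mm10, while the matrix headers name Cell Ranger 5.0.0; annotation, strand and use of introns are not stated in those sources. Of the 11 members that overlap another coding gene, Itga1 lies on the same strand as Pelo, so strand would not separate them. The others overlap genes of the opposite strand (Ilk with Taf10). Without strand, reads in those overlaps cannot be told apart.

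Members and lists were chosen with earlier results of these data known. Of 53090 barcodes (51010039 to 64739206 UMIs per library), barcodes below 200 genes or at 10% mitochondrial UMIs or more were dropped and Scrublet-type doublets (0.8% per 1000 barcodes) removed. Nuclei were clustered (2000 variable genes without the members, 30 components, 15 neighbours, Leiden resolution 1, leidenalg 0.10.2). Clusters were named from marker lists by a score of at least 1 on the log2 scale, a rule set after the clusters were seen; clusters led by cell cycle genes, of over 5 times the usual depth or with markers of 2 classes stayed unnamed. Counts were summed per library and lineage, and edgeR 4.0.16 (filterByExpr, TMM, quasi-likelihood, Benjamini-Hochberg over all genes) tested lineages with library as a block, RVVO against sham with no covariate, and their interaction. P-values were adjusted within each contrast. Those of RVVO against sham measure the spread between 2 libraries a group. Those between lineages measure the spread of lineage differences across the libraries, and those of the interaction that spread within each group. Each of these spreads may be technical. Alternatives were DESeq2 1.42.0, RLE size factors, library totals, no filter on low counts, doublets kept, Leiden resolution 0.5, at least 500 genes and under 5% mitochondrial UMIs, nuclei thinned to 1000 UMIs, the members allowed in clustering, and each library left out. The scripts were tested on simulated data. Of genes given a log2 change of 1 between RVVO and sham, 11% were called in CMs, 52% in endothelial nuclei and 39% in fibroblasts. In pericytes 40% and in macrophages 22% were called. Of all calls, 3.7%, 4.73%, 8.82%, 6.47% and 13.1% were false in the same order of lineages. All 39 members are accounted for; values are given for those with a leading lineage, those with an unadjusted p under 0.05 and the least detected.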

Additional observations from a re-analysis of the deposited data

Results flagged for a closer look

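For Tln2 and Tln1, RVVO and sham libraries did not overlap in pericytes and, in the opposite direction, in another lineage, with no test passed. Only pairs of lineages with pericytes were searched, and how many of all genes did so was not counted. The pattern was not particular to the talins. For example, Itga9 was lower in CMs and higher in endothelial nuclei, and Vcl lower in endothelial nuclei and higher in macrophages. Tln2 was also higher without overlap in fibroblasts and macrophages. For Tln2 the log2 difference between RVVO and sham was -0.16 in CMs and 0.18 in pericytes, a difference of -0.35. For Tln1 it was 0.11 in fibroblasts and -0.25 in pericytes, a difference of 0.36. Pericytes were not in the interaction test, so the difference was not tested. After thinning to 1000 UMIs a nucleus, the groups overlapped for Tln2 in CMs and in pericytes and for Tln1 in pericytes.

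A cluster of 102 nuclei left unnamed, with platelet genes such as Pf4 and Gp9 among its leading genes, held Itgb3 at 923 CPM, from 191 UMIs. This subunit of the platelet fibrinogen receptor was at 69.9 ± 29 CPM in lymphatic endothelial nuclei, its highest named lineage. Of the 102 nuclei, 85 came from sham 1, and there the unnamed nuclei held 48.7% of all Itgb3 UMIs.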

How the results depend on the processing

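The number of members with 1 lineage above every other was 20 and ranged from 18 to 23 over 13 alternatives, 18 to 23 when each library was left out. No member changed to another lineage under any of them, though each lost the calls of 1 to 4 genes, RLE scaling excepted, which gained Itgb1. The count of members called between RVVO and sham stayed at 0 under every alternative in CMs, endothelial nuclei, fibroblasts and pericytes. In macrophages it was 3 without the filter on low counts and 0 otherwise. The share of all genes called in macrophages without that filter was not counted, so the 3 is not read as a trait of the members. For members whose RVVO effect differed between lineages, the count of 0 became 2 with DESeq2, 11 without the filter and 0 to 12 when each library was left out, the 12 being without sham replicate 1, where the lone sham library is assumed to vary like the others; the cause was not tested. Scaling by library totals was chosen after seeing the data. The median CM, endothelial and fibroblast shares moved by less than 1 SD without doublet removal. With the replicate number as a block, 0 members were called in each of the 5 lineages. Deviations of same-numbered libraries correlated at -0.07 to 0.09 in these 5 lineages. Makeup did differ by number in places. Epicardial nuclei were 0.978%, 3.69%, 2.02% and 5.09% of the kept nuclei, and a fibroblast cluster held 0%, 3.98%, 0% and 4.28% of the fibroblasts. Whether the replicate numbers mark more than library names was not tested. The counts between RVVO and sham, and those of the interaction, rest on 2 libraries a group.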
